A study of Rattus norvegicus with 43 samples.

Results

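Complement genes were examined in the anterior pituitary of 43 male COPxACI F2 rats, offspring of an intercross of the F1 of Copenhagen (COP) females and ACI males. Of 9 genes taken up (C3, C1qa, C1qb, C1qc, C1s, C2, Cfb, Cd55 and Serping1), 7 had a probe set annotated to that gene alone, out of 14217 such genes on the array. They were chosen by the very large spread of the C3 intensity over these arrays, so that spread is a description here and was not tested. Every animal was implanted at 9 weeks of age with 5 mg of diethylstilbestrol (DES, a synthetic estrogen), was treated for 12 weeks, received 50 mg/kg of the thymidine analog BrdU 4 hours before sacrifice, and was killed at 21 weeks of age. No untreated group was analysed here, and 1 array was run per animal. The animals came from both ends of the pituitary weight range of a larger F2 population, 22 with heavy and 21 with light glands. The labels do not say which class a given rat belongs to. All arrays were therefore treated as 1 group, and the question asked was which genes varied with the complement genes from animal to animal. The pituitary markers Prl and Gh1 were bright, at 15.61 ± 0.14 and 14.97 ± 0.41 on the log2 scale (SD, n = 43).

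Complement is a cascade of plasma and cell-surface proteins that tags particles and damaged cells for removal. In the classical pathway C1q binds its target and its partner proteases C1r and C1s cut C4 and C2, and in the alternative pathway factor B (Cfb), factor D (Cfd) and properdin (Cfp) build a convertase. Both pathways meet at C3, whose fragments coat the target. The liver makes most plasma complement, whereas the C1q chains come mainly from macrophages and, in the brain, from microglia. The cascade is held in check by Serping1, the inhibitor of C1r and C1s, and by Cd55, which dissociates the C3 convertases on cell membranes.

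The 3 genes of the C1q chains lie next to each other on chromosome 5 in the order C1qb, C1qc, C1qa, and C2 and Cfb are neighbours on chromosome 20. C3 lies on chromosome 9. The sequences around the start sites of C3, C1qa and C1qb are shown because C3 had the widest spread and C1qa and C1qb were the C1q chains called on it below. They run from 250 bases before to 50 bases after the start (RefSeq, build GRCr8, 5′ to 3′ on the gene's strand). Such sequences were found for 4 of the 9 genes.
C3 (chr9:2201290-2201589, minus strand): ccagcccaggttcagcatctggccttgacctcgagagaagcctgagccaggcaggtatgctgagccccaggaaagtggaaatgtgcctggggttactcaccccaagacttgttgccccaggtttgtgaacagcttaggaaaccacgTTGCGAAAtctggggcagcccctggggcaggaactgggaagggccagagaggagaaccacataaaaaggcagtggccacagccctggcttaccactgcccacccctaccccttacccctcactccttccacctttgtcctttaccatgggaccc
C1qa (chr5:154419884-154420183, minus strand): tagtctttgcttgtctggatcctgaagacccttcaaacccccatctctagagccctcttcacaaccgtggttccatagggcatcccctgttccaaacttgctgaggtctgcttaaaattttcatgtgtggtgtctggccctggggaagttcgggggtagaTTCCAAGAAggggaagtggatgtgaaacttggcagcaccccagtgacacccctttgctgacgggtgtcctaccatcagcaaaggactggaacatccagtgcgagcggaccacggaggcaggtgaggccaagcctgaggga
C1qb (chr5:154407778-154408077, minus strand): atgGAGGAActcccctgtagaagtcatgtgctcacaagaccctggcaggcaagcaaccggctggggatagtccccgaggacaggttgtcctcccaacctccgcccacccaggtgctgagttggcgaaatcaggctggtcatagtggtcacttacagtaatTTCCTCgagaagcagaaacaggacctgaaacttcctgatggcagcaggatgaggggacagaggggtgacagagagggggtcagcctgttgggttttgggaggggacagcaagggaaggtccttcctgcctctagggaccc
Capitals mark matches, on either strand, to the C/EBP motif TTGCNNAA, the PU.1 motif GAGGAA and the gamma-activated site TTCNNNGAA. The C3 window held a C/EBP match at bases -104 to -97 from the start, and 10.6% of the 33469 rat windows of this length hold one. The C1qb window held PU.1 matches at bases -247 to -242 and, read on the other strand, at -90 to -85, a motif found in 27.6% of windows. The first of these overlaps a match to the NF-kB motif (7.51% of windows). The C1qa window held a gamma-activated site at bases -90 to -82, a motif found in 8.87% of windows. The TATA box TATAAA (14.2% of windows), the AP-1 motif TGANTCA (7.33%) and the palindromic estrogen response element (0.0269%) were also looked for, and none of the 3 windows holds these letters. A match describes the letters and shows no binding.

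Among the starters of the classical pathway, the C1q chains had spreads near the middle of the array. Of the probe sets passing a filter on dim signals, 45.6% had a larger SD than C1qa, 48.7% than C1qb and 61.2% than C1qc. On the log2(intensity + 16) scale C1qa lay between 11.64 and 12.73 with a median of 12.07, a 2.13-fold range. C1qb lay between 10.89 and 11.80 (median 11.22) and C1qc between 10.73 and 11.79 (median 11.34). The protease gene C1s ranged from 8.90 to 10.09 around a median of 9.52. Brightness is not calibrated between probe sets, so these levels do not rank the transcripts.

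C3 stood apart in its range. Its log2 level was 6.11 in the lowest animal (number 2), 9.54 at the median and 11.20 in the highest (number 25), a 34.1-fold range of intensity + 16. The intensities themselves were 52.9, 726.6 and 2331. Its SD was 1.40, against 0.24 for C1qa, 0.24 for C1qb, 0.21 for C1qc and 0.24 for C1s, and 0.0258% of the probe sets passing the filter on dim signals had a larger one. As a description of its shape, the Bayesian information criterion of a mixture of 2 normal components minus that of a single one was -3.93, which leans to 2 components but is less than the drop of 10 set for splitting the animals, and the widest gap separated only the lowest animal. In RNA of bulk tissue, fewer cells of a type and less RNA per cell cannot be told apart, for C3 and for every gene below.

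Of the regulators, Serping1 had a 1.76-fold range and lay between 8.90 and 9.72 (median 9.27). Cd55 had a wider one, 2.97-fold, and lay between 7.21 and 8.78 (median 8.26), and its second probe set, 1370406_a_at, lay between 5.84 and 8.11 (median 7.30), a 4.83-fold range. No probe set was annotated to C2 or to Cfb alone. Probe sets 1383391_a_at (7.67 to 9.16), 1383392_at (7.20 to 8.52), 1389470_at (6.20 to 8.60) and 1393219_at (7.33 to 8.67) are annotated to Cfb and C2 together, and are given by their IDs because they cannot be assigned to either gene.

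**Figure D1:**
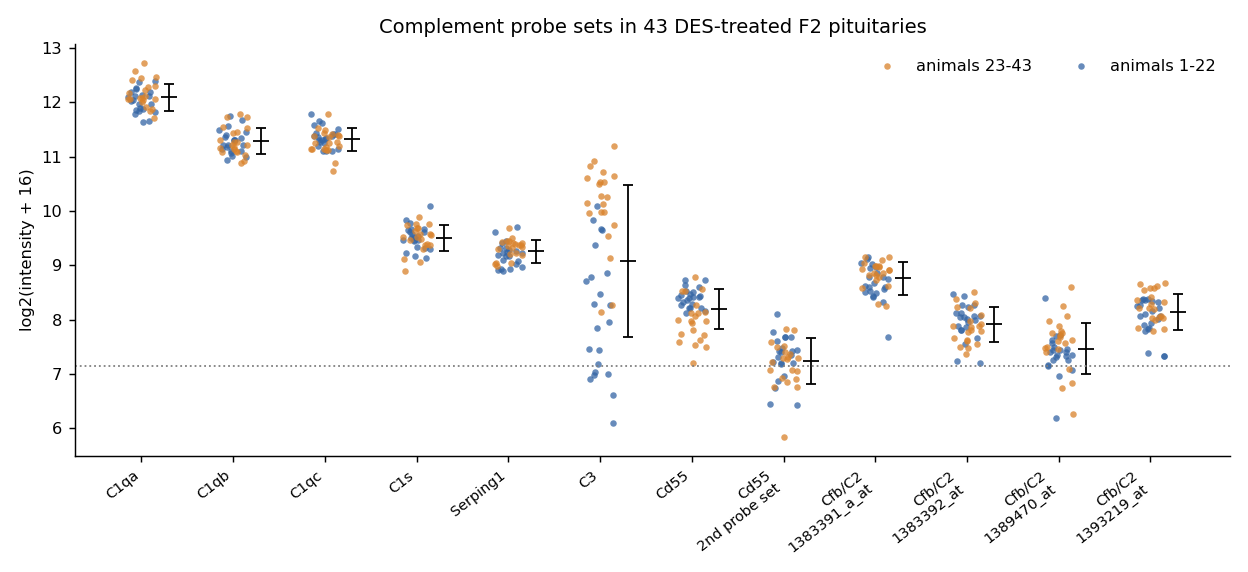
Log2(intensity + 16) (y axis) of the probe sets of the complement genes (x axis), with a point for each of the 43 animals coloured by animal number, with the mean and SD (black) and the filter on dim probe sets (dotted line). C3 spans 6.11 to 11.20, whereas C1qa spans 11.64 to 12.73.

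Of 51 genes on lists of complement components, regulators and receptors, 40 had a probe set of their own and 21 passed the filter. Of the terminal components, C5, C6, C8a, C8b and C9 did not pass and C8g did (mean 8.40). The mannose-binding lectins Mbl1 and Mbl2 did not pass, whereas Masp1 (7.89) and Masp2 (8.48) of the lectin list did. The regulators Cfi, C4bpa and C4bpb did not pass, whereas Vtn (7.91) did. Among the genes on these lists that passed the filter, the widest spreads after C3 were those of Cfd and Fcna. Cfd, the protease that cleaves factor B, lay at 8.16 ± 0.80. Fcna, a ficolin of the lectin pathway, lay at 8.28 ± 0.69 (SD, n = 43). Cfd ranged 11.9-fold, from 6.51 to 10.08, and Fcna 9.44-fold, from 6.89 to 10.13.

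C3 followed the animal numbers. In animals 23-43 it lay between 8.15 and 11.20 with a median of 10.26, against 6.11 to 10.09 with a median of 8.11 in animals 1-22. The 12 highest levels were all from animals 23-43 and the 11 lowest all from animals 1-22, although the ranges overlapped, and a step between animals 22 and 23 took up 50.9% of the variance. Cd55, by its brightest probe set, was shifted the other way, with a median of 7.98 in animals 23-43 and 8.41 in animals 1-22. The step took up 32.9% of its variance. Medians by number were not taken for its second probe set. For the other members the step took up between 0.067% (C1qb) and 8.94% (C1qa). A smooth trend over the numbers, a spline with 6 degrees of freedom, took up 58.9% for Cd55 and 52.3% for C3. For C1qa the trend took up 33.7%, for C1qb 24.3%, for C1qc 20.4%, for C1s 8.40% and for Serping1 7.74%. With 6 terms a spline takes up some variance of any gene, and these shares were not tested. The break was known from earlier results of these data. No label gives it a meaning, and a weight class, a batch or another difference between the numbers cannot be told apart, so the relations below are also given within each range of numbers or with the step in the model.

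**Figure D2:**
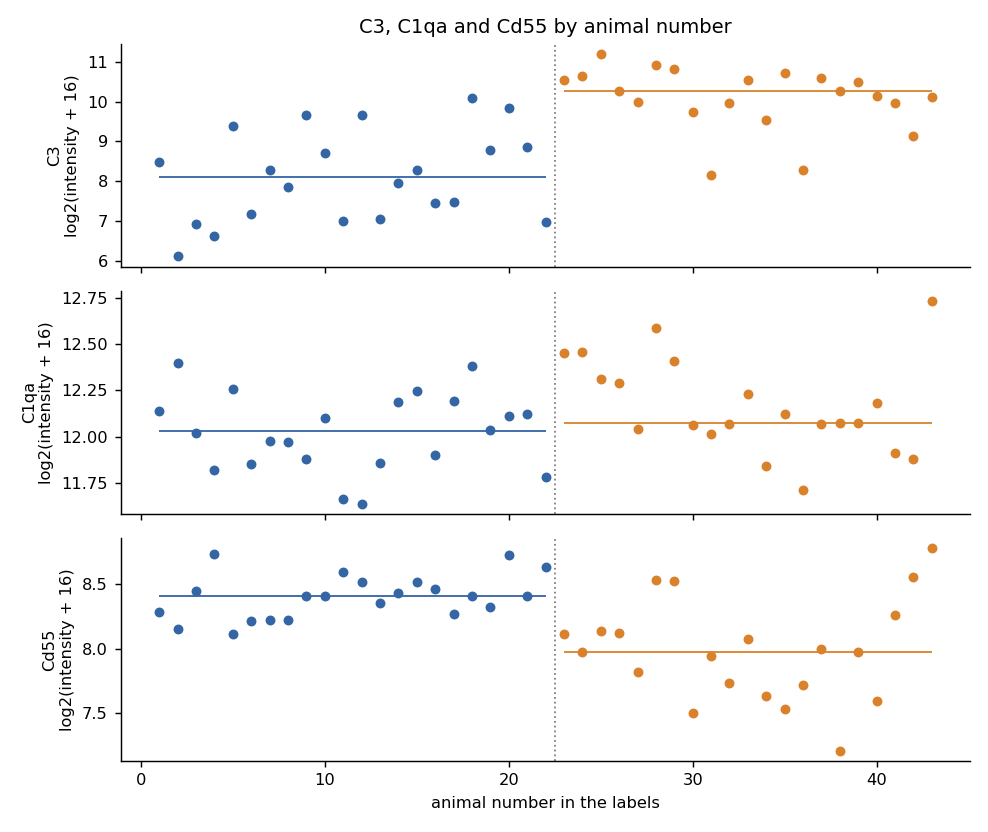
Log2(intensity + 16) of C3, C1qa and Cd55 (y axes) by animal number (x axis), with the median of animals 23-43 and of animals 1-22 (lines) and the break between 22 and 23 (dotted). The median of C3 is 10.26 in animals 23-43 and 8.11 in animals 1-22.

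The next question was which complement genes varied with C3. In a regression of every probe set passing the filter on the C3 level (limma, Benjamini-Hochberg adjustment over 15520 probe sets), 1468 (9.46%) were higher and 1290 (8.31%) lower with C3 at an adjusted p of 0.05. With array medians subtracted the split was 1033 higher and 1617 lower. Of the 20 complement genes tested, 4 were higher, 2 lower and 14 not called. The median slope of these 20 genes was 0.0027, against 0.0020 over all probe sets tested, in log2 units per log2 unit of C3. Of the 6 members tested, C1qa and C1qb were higher with C3. Few calls on C3 remained with a step between animals 22 and 23 in the model. Over all probe sets 46 were then higher and 11 lower. Of the 2758 calls without the step, 56 (2.03%) were kept in the same direction.

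C1qa had a slope on C3 of 0.081 ± 0.024 (SE, adjusted p = 0.014) and C1qb of 0.069 ± 0.024 (adjusted p = 0.035). C1qb kept its call with the step in the model (slope 0.14 ± 0.031, adjusted p = 0.027). C1qa did not (slope 0.090 ± 0.034, adjusted p = 0.41), and its correlation with C3 was 0.64 in animals 23-43 and 0.21 in animals 1-22. The call of C1qb was lost when any of animals 4, 16, 22, 25, 26, 28 or 29 was left out (adjusted p between 0.051 and 0.073), with array medians subtracted (adjusted p = 0.070) and with no filter (adjusted p = 0.071). The third chain, C1qc, had a slope of 0.000057 ± 0.023.

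The strongest relations to C3 within the cascade were those of a pair of probe sets shared by Cfb and C2. Probe set 1393219_at had a slope of 0.16 ± 0.026 (adjusted p = 2.9e-05) and 1383391_a_at of 0.14 ± 0.025 (adjusted p = 0.00010). With the step in the model the slopes were 0.21 ± 0.037 and 0.19 ± 0.035 (adjusted p = 0.0010 and 0.0013). The correlation of 1393219_at with C3 was 0.45 in animals 23-43 and 0.78 in animals 1-22, and that of 1383391_a_at 0.53 in animals 23-43 and 0.71 in animals 1-22. The other probe sets of this pair of genes did not follow C3, with slopes of 0.021 ± 0.035 for 1383392_at (adjusted p = 0.72) and 0.059 ± 0.049 for 1389470_at (adjusted p = 0.43). Which transcripts each of the 4 reports was not tested.

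The other complement genes called on C3 were not called once the step was in the model, where 2.03% of all calls on C3 were kept. Clu, the abundant chaperone clusterin that also blocks the terminal complex, had a slope of 0.099 ± 0.023 (adjusted p = 0.0016), and Cr1l (the membrane regulator Crry) of 0.041 ± 0.011 (adjusted p = 0.0085). Cfd had a slope of -0.28 ± 0.074 (adjusted p = 0.0065) and Cfp of -0.11 ± 0.034 (adjusted p = 0.028). With the step the adjusted p of these 4 lay between 0.48 and 0.96. The slope of Clu was then 0.078, close to that without the step, and those of Cr1l (0.021), Cfp (-0.030) and Cfd (0.069) were nearer 0 or of the other sign. Cfp also lost it without animal 2 (slope -0.099, adjusted p = 0.059) and with no filter (adjusted p = 0.057), and Cr1l with array medians subtracted (adjusted p = 0.060).

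Cfd changed sign within a range of numbers. It had a median of 7.65 in animals 23-43 and 8.64 in animals 1-22. Within animals 23-43 its slope on C3 was 0.39 ± 0.097 (adjusted p = 0.25) and within animals 1-22 -0.076 ± 0.096 (adjusted p = 0.87). Among the regulators, Cd55 had a slope on C3 of -0.093 ± 0.037 (adjusted p = 0.074) over all animals, and 0.030 with the step in the model. Its second probe set, 1370406_a_at, had a slope of -0.059 ± 0.045 (adjusted p = 0.39). Serping1 (0.025 ± 0.023, adjusted p = 0.47) and C1s (-0.019 ± 0.026, adjusted p = 0.66) were not called.

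**Figure D3:**
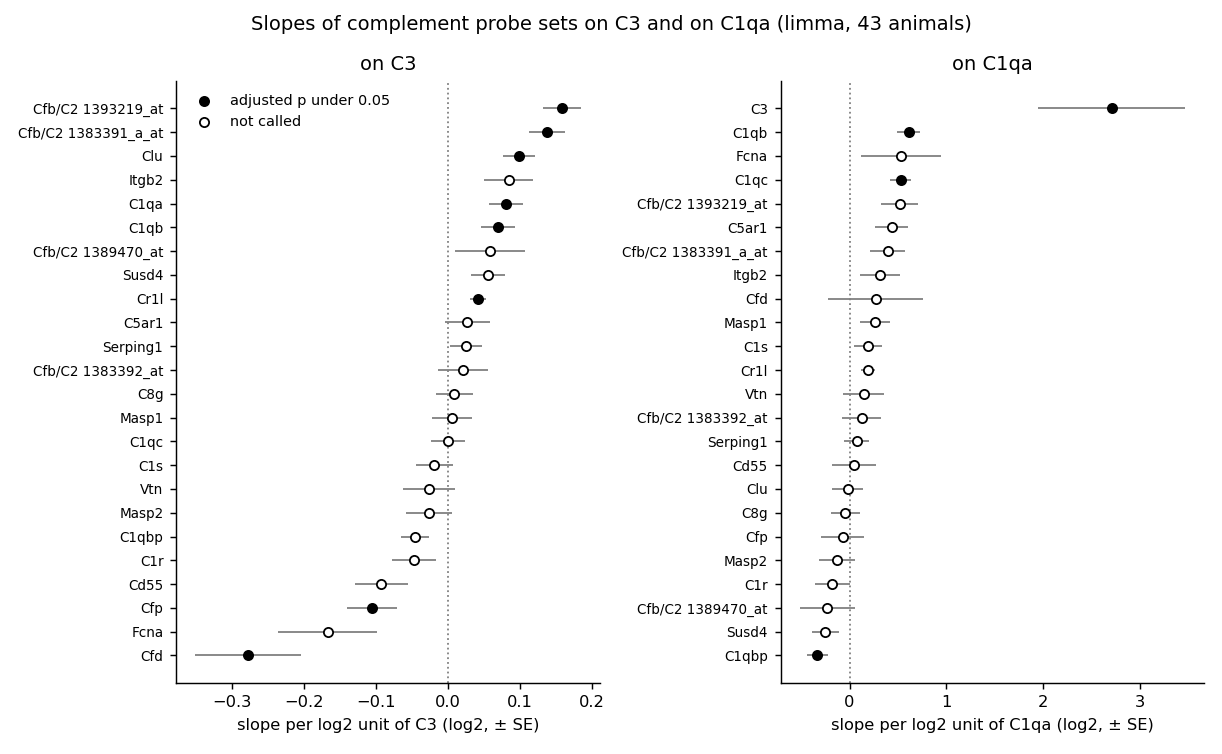
Slopes (x axes, log2 units per log2 unit of C3 or of C1qa, ± SE, 43 animals) of the complement genes tested and of the 4 probe sets shared by Cfb and C2 (y axes). Filled points have an adjusted p under 0.05. The shared probe set 1393219_at has the highest slope on C3 (0.16) and Cfd the lowest (-0.28).

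C1qa, the C1q chain whose probe set had the highest mean signal, was then used in place of C3. On C1qa 1049 probe sets (6.76%) were higher and 1471 (9.48%) lower, and with array medians subtracted 1166 were higher and 709 lower. Of 20 complement genes 3 were higher (C1qb, C1qc and C3), 1 was lower (C1qbp) and 16 were not called. The median slope of the 20 was 0.17, against -0.044 over all probe sets tested.

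The C1q chains moved together. C1qb had a slope on C1qa of 0.61 ± 0.12 (adjusted p = 0.0015) and C1qc of 0.53 ± 0.11 (adjusted p = 0.0021). Both kept the call with the step in the model (adjusted p = 0.0015 and 0.00013). The correlation of C1qb with C1qa was 0.65 in animals 23-43 and 0.66 in animals 1-22, and that of C1qc 0.72 in animals 23-43 and 0.77 in animals 1-22. C3 had a slope on C1qa of 2.70 ± 0.76 (adjusted p = 0.014), which was not called with the step in the model (1.62 ± 0.59, adjusted p = 0.075).

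Animal 43 had the highest C1qa level (12.73), and its array also had the lowest mean correlation with the others (0.927) and the highest 3′ minus 5′ signal differences of the control probe sets, a sign of RNA quality (log2 1.97 for actin, against at most 1.67 in the other animals, and 0.45 for Gapdh, against at most 0.29). Without it the probe sets called on C1qa were 72 higher and 39 lower, while the call of C1qb (slope 0.79, adjusted p = 9.6e-05) and that of C1qc (0.48, adjusted p = 0.037) remained. C3 lost the call on C1qa (slope 2.92, adjusted p = 0.078), as did C1qbp, a mitochondrial protein first found to bind C1q (slope -0.31, adjusted p = 0.20, against -0.33 ± 0.11 and adjusted p = 0.034 with it). C1qbp also lost it without animal 13, 24 or 36 (adjusted p between 0.050 and 0.062). The part of array quality in the C1qa result was not tested beyond this and the model with quality terms, under which 71 probe sets were higher and 43 lower.

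C3 and C1qa were next fitted together over 15519 probe sets, which gives the slope on each at a fixed level of the other. On C3 1164 probe sets (7.5%) were higher and 800 (5.15%) lower, and on C1qa 445 (2.87%) were higher and 872 (5.62%) lower. C1qb (slope 0.54 ± 0.13, adjusted p = 0.013) and C1qc (0.67 ± 0.11, adjusted p = 0.00097) followed C1qa at a fixed C3 level and were not called on C3 (adjusted p = 0.52 and 0.062). The shared probe sets went the other way, with slopes on C3 of 0.15 ± 0.030 for 1393219_at (adjusted p = 0.00051) and 0.14 ± 0.029 for 1383391_a_at (adjusted p = 0.00095), and slopes on C1qa that were not called (adjusted p = 0.71 and 0.94).

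At a fixed C1qa level Clu (0.13 ± 0.024) and Susd4, a membrane inhibitor of complement in the brain (0.097 ± 0.024, adjusted p = 0.0041), were higher with C3. Cd55 (-0.12 ± 0.041, adjusted p = 0.040), Cfd (-0.38 ± 0.077), Cfp (-0.13 ± 0.039) and Fcna (-0.27 ± 0.071) were lower. The second probe set of Cd55, 1370406_a_at, was not called (-0.040 ± 0.051, adjusted p = 0.67). Susd4 was called also with the step in the model (0.16 ± 0.030, adjusted p = 0.0026), and Clu (0.11), Cfd (-0.037), Cfp (-0.052) and Fcna (-0.00068) were not (adjusted p of 0.11 or higher). Cd55 was not called either (-0.000077 ± 0.050), and leaving out 1 animal ended its call for 15 of the 43 animals (adjusted p up to 0.073, without animal 35). Cfp lost the call without animal 2 (slope -0.13, adjusted p = 0.065). At a fixed C3 level Fcna was higher with C1qa (1.26 ± 0.41, adjusted p = 0.048) and Susd4 lower (-0.51 ± 0.14, adjusted p = 0.018). Leaving out 1 animal ended the call of Fcna for 27 of the 43 animals (adjusted p up to 0.094, without animal 2), and that of Susd4 without animal 12 (slope -0.46, adjusted p = 0.058) or 43 (slope -0.37, adjusted p = 0.24).

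Scores of cell type markers were then set beside the members. A score was the mean centred log2 level of a list's genes, and 7 members were related to 8 lists. Of these 56 relations 12 passed an adjusted p of 0.05 (permutation test, 100000 permutations, two-sided, Benjamini-Hochberg over all 56).

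All C1q chains followed the macrophage and leukocyte score, which is built from 14 genes. For C1qc r was 0.70 and Spearman's rho 0.70 (permutation p = 1e-05 for each, the smallest that 100000 permutations can give, adjusted p = 0.00014 for r). It was 0.67 with the 2 animals of most extreme score left out, and 0.84 in animals 23-43 and 0.69 in animals 1-22. C1qb had r = 0.52 (rho = 0.48, permutation p = 0.00030 and 0.0011, adjusted p = 0.0024) and C1qa r = 0.51 (rho = 0.53, permutation p = 0.00042 and 0.00026, adjusted p = 0.0027), with 0.45 and 0.47 without the same 2 animals and values of 0.45 or more in each range of numbers. Serping1 followed the fibroblast and matrix score (r = 0.55, rho = 0.48, permutation p = 0.00014 and 0.0012, adjusted p = 0.0013), with r = 0.50 without the 2 farthest animals, 0.029 in animals 23-43 and 0.68 in animals 1-22.

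C3 did not follow the macrophage score (r = 0.14). It followed the scores of pituitary hormone cells (r = 0.75, rho = 0.70), folliculostellate and stem cells (r = 0.66, rho = 0.62), posterior lobe and neural genes (r = 0.64, rho = 0.59) and endothelium (r = 0.60, rho = 0.60; adjusted permutation p for r of 0.00056 or lower for these 4), and went against proliferation (r = -0.39, rho = -0.47, adjusted permutation p = 0.039). With the 2 most extreme scores left out the 5 values of r were 0.75, 0.61, 0.54, 0.59 and -0.39. Within animals 23-43 these correlations lay between -0.12 and 0.25, against -0.35 to 0.62 within animals 1-22. The neural relation was -0.036 when only genes above the 75th percentile entered the score. Of the 5 genes of the neural score only Nefl was called on C3 in the regression (slope 0.33 ± 0.047, adjusted p = 2.2e-06). Nefm (0.035) and Syt1 (0.084) had slopes above 0, and Mbp (-0.033) and Snap25 (-0.012) below 0. The proliferation relation lost its call when any of 10 animals was left out (adjusted p up to 0.081, without animal 11). Cd55 went against the hormone cell score (r = -0.51, rho = -0.46, adjusted permutation p = 0.0027), with r = -0.56 without the 2 farthest animals, -0.12 in animals 23-43 and 0.22 in animals 1-22. The relation of Cd55 to proliferation (r = 0.39) lost its call when any of 22 animals was left out, and r was 0.19 without animal 38. C1qa was related to the blood and erythroid score (r = 0.40, rho = 0.38, adjusted permutation p = 0.039), a call lost when any of 6 animals was left out (adjusted p up to 0.097, without animal 11). Of the 3 genes of this score, Hba-a3 (SD 2.37) varied far more than Hbb (0.60) and Alas2 (0.66). In the regression on C1qa, Hba-a3 was not called (adjusted p = 0.20). Hbb (adjusted p = 0.015) and Alas2 (0.048) were, but not without animal 43 (adjusted p = 0.23 and 0.28). What part cell numbers had in these relations was not tested.

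**Figure D4:**
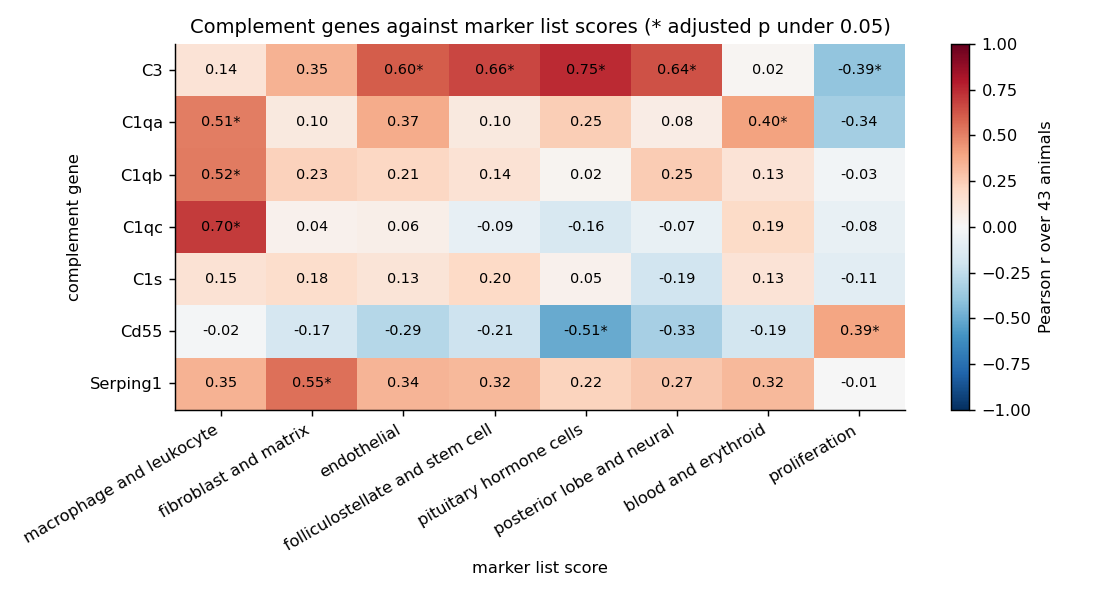
Pearson correlations over 43 animals between the level of each complement gene (rows) and the score of each marker list (columns), with an asterisk for an adjusted permutation p under 0.05. C1qc has 0.70 with the macrophage and leukocyte score and C3 has 0.14.

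Single macrophage genes went in both directions with C3. Of 14 macrophage and leukocyte genes 4 were higher with C3, 3 lower and 7 not called, where 9.46% of all probe sets were higher and 8.31% lower. Csf1r, the receptor for the macrophage growth factor CSF1, had a slope of 0.22 ± 0.020 (adjusted p = 3.6e-11), and Ctss, the lysosomal protease cathepsin S, of 0.25 ± 0.021 (adjusted p = 4.6e-12). Mrc1, the mannose receptor, had a slope of -0.26 ± 0.041 (adjusted p = 1.1e-05) and Cd14, the endotoxin co-receptor, of -0.12 ± 0.034 (adjusted p = 0.012). Cd68 (-0.099 ± 0.032, adjusted p = 0.024) lost its call without animal 2 (slope -0.086, adjusted p = 0.070). The other genes higher with C3 were Tyrobp (0.11 ± 0.035), which lost its call without animal 6 or 22 (adjusted p up to 0.069), and Cd4 (0.079 ± 0.027), which lost it without any of 9 animals (adjusted p up to 0.079). Aif1, a marker of macrophages and microglia that had the highest moderated t on C1qa among genes with a probe set of their own (slope 0.82 ± 0.090, adjusted p = 1.2e-07), was not called on C3 (0.053 ± 0.025, adjusted p = 0.13).

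Csf1r and Ctss kept their relation to C3 within both ranges of animal numbers. Ctss lay between 11.24 and 12.91 with a median of 12.04, and its correlation with C3 was 0.88 over all animals (rho = 0.92), 0.91 without animals 2 and 4, whose C3 levels were the most extreme, 0.81 in animals 23-43 and 0.79 in animals 1-22. Csf1r lay between 8.92 and 10.19 (median 9.65) and had r = 0.87 (rho = 0.88), with 0.83 in animals 23-43 and 0.78 in animals 1-22. With the step in the model Mrc1 (-0.13, adjusted p = 0.47), Cd14 (-0.077, adjusted p = 0.77) and Cd68 (-0.051, adjusted p = 0.88) were not called. Tyrobp (0.12, adjusted p = 0.47) and Cd4 (0.088, adjusted p = 0.55) lost the call too, although their slopes were no smaller than without the step.

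The 15 genes with the highest moderated t on C3 (1 probe set per gene) began with Pea15, Anxa3, Ctss, Csf1r and P2ry12, and these 5 were called within animals 23-43 and within animals 1-22 as well. These genes were picked for their relation to C3 in the same animals, so their correlations are descriptions. P2ry12, a purinergic receptor, and Tmem119 are known as markers of resting microglia in the brain. P2ry12 ranged from 7.96 to 10.73 (median 9.49), with a slope on C3 of 0.43 ± 0.040 (adjusted p = 1.4e-10), r = 0.85 (rho = 0.84) over all animals, 0.85 in animals 23-43 and 0.85 in animals 1-22. Tmem119 had a slope of 0.35 ± 0.037 (adjusted p = 5.6e-09), with r = 0.56 in animals 23-43 and 0.70 in animals 1-22. Pea15 (slope 0.26 ± 0.021) had r = 0.86 in animals 23-43 and 0.75 in animals 1-22, and Anxa3, an annexin (slope 0.27 ± 0.022), 0.83 in animals 23-43 and 0.85 in animals 1-22.

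The rest of these 15 were Golm1, Npc2, Mpzl2, Dapl1, Crot, Cmbl, Cst3, Tpd52l1 and Gyg1, with slopes between 0.13 (Cst3, the protease inhibitor cystatin C) and 0.30 (Golm1). Npc2 is a lysosomal cholesterol carrier. With the step in the model 13 of the 15 were still called, all but Tpd52l1 (slope 0.12, adjusted p = 0.063) and Gyg1 (slope 0.075, adjusted p = 0.25). Of all calls on C3 2.03% were kept, but these 15 were picked for the highest t on C3. In animals 23-43 r with C3 was 0.21 for Mpzl2, 0.18 for Dapl1, 0.30 for Crot and 0.25 for Cmbl. In animals 1-22 it was 0.75, 0.76, 0.80 and 0.75 for these genes. Golm1, Npc2 and Cst3 had 0.65, 0.60 and 0.72 in animals 23-43, and 0.77, 0.74 and 0.67 in animals 1-22.

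The 15 with the lowest t on C3 were Pilra, Dnase1l3, Lox, Slc2a13, Kcnq5, Fads1, Plbd1, Slc38a5, Acp5, Nppc, Dab2, Fkbp9, Matn2, Ptprz1 and Jag2. Pilra, an inhibitory receptor of myeloid cells, had a slope of -0.33 ± 0.035 (adjusted p = 3.3e-09) and r = -0.82 (rho = -0.81), with -0.63 in animals 23-43 and -0.64 in animals 1-22. Dnase1l3, a secreted nuclease made by macrophages and dendritic cells, had a slope of -0.35 ± 0.040 (adjusted p = 2.9e-08), with r = -0.78 in animals 23-43 and -0.66 in animals 1-22. With the step in the model 4 of the 15 were called (Pilra, Dnase1l3, Plbd1 and Acp5, adjusted p between 0.00011 and 0.034), and the slopes of the other 11 lay between -0.18 (Lox) and -0.058 (Matn2). Over all 15520 probe sets 11 were lower with C3 in that model.

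**Figure D5:**
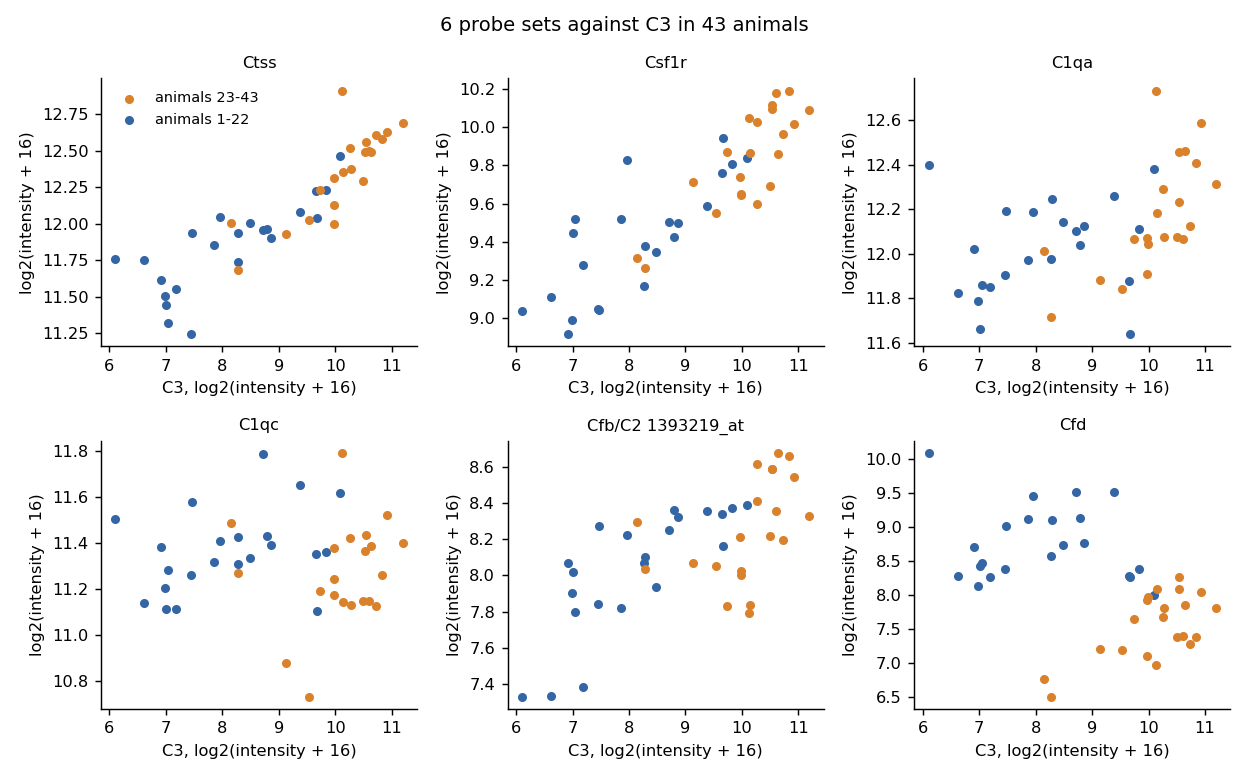
Log2(intensity + 16) of Ctss, Csf1r, C1qa, C1qc, the shared probe set 1393219_at and Cfd (y axes) against C3 (x axes) in 43 animals (points, coloured by animal number). Ctss (r = 0.88) and Csf1r (r = 0.87) rise with C3 in both ranges of numbers, C1qc is flat, and Cfd is split by the numbers.

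Most hormone genes were called on C3 over all animals. Of 9 genes of pituitary hormone cells 7 were higher with C3 and 1 was lower, beside 9.46% higher and 8.31% lower of all probe sets. The lower one was Drd2, the dopamine receptor of lactotrophs (-0.11 ± 0.027, adjusted p = 0.0040). Tshb, the thyrotropin beta subunit, had a slope of 0.48 ± 0.065 (adjusted p = 8.7e-07) and Cga, the subunit shared by the glycoprotein hormones, of 0.19 ± 0.026 (adjusted p = 6.8e-07). With the step in the model Tshb (0.19, adjusted p = 0.39), Cga (0.079, adjusted p = 0.35) and Drd2 (-0.060, adjusted p = 0.77) were not called. Neither were Gh1 (0.068, adjusted p = 0.73), Fshb (0.072, adjusted p = 0.85) and Nr5a1 (0.076, adjusted p = 0.83), which had slopes of 0.20, 0.34 and 0.28 without it. Lhb (0.049, adjusted p = 0.89, against 0.091 without the step) and Pou1f1 (0.056, adjusted p = 0.75, against 0.073) also lost the call. In the fit without the step, Lhb lost it when any of 5 animals was left out (adjusted p up to 0.080). Pou1f1 lost it there without animal 2 (adjusted p = 0.073). The prolactin gene Prl had a slope of 0.023 ± 0.016 (adjusted p = 0.34).

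Markers of other cells were also called on C3. Sox2 (slope 0.20 ± 0.038, adjusted p = 0.00022), Anxa1 and S100b were the 3 folliculostellate and stem cell genes of 5 that were higher with C3. Of all probe sets 9.46% were higher. Of 4 endothelial genes 2 were higher, the receptor Tek (0.17 ± 0.026, adjusted p = 1.3e-05) and Emcn. Of 4 fibroblast and matrix genes 1 was higher, Dcn (0.34 ± 0.063, adjusted p = 0.00011). With the step in the model none of these 6 was called (adjusted p between 0.16 and 0.76), although the slopes of S100b (0.16, against 0.14 without the step), Anxa1 (0.16, against 0.21) and Emcn (0.088, against 0.12) stayed of similar size. Those of Sox2 (0.10), Tek (0.070) and Dcn (0.13) were smaller than without it. Of all calls on C3 2.03% were kept with the step.

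C3 is known in the liver as an acute phase gene driven by interleukins through STAT3, C/EBP and NF-kB factors. Of 15 acute phase and NF-kB genes tested, 1 was higher with C3, 3 were lower and 11 were not called, beside 9.46% higher and 8.31% lower of all probe sets. Cp, ceruloplasmin, was higher (0.14 ± 0.029, adjusted p = 0.00036). Stat3 (-0.25 ± 0.058, adjusted p = 0.0016), Nfkb2 (-0.12 ± 0.035, adjusted p = 0.014) and the adhesion molecule Vcam1 (-0.21 ± 0.036, adjusted p = 5.3e-05) were lower. None of these 4 was called with the step in the model (adjusted p between 0.28 and 0.82), where 2.03% of all calls on C3 were kept. Cp (0.12) and Nfkb2 (-0.097) had slopes of similar size there, and those of Stat3 (-0.11) and Vcam1 (-0.083) were nearer 0. The C/EBP genes Cebpb (-0.070 ± 0.030, adjusted p = 0.10) and Cebpd (0.064 ± 0.038, adjusted p = 0.26) were not called.

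On C1qa 6 of 14 macrophage and leukocyte genes were higher, 0 lower and 8 not called, where 6.76% of all probe sets were higher and 9.48% lower. The difference from the C3 fit was not tested. The 6 were Aif1, Ctss (slope 1.16 ± 0.17, adjusted p = 7.1e-05), Cd53, Tyrobp, Csf1r and Fcer1g. Without animal 43 Aif1 (slope 0.86, adjusted p = 3.4e-07) and Ctss remained called, while Cd53 (0.55, adjusted p = 0.052), Tyrobp (0.72, adjusted p = 0.052), Csf1r (0.68, adjusted p = 0.12) and Fcer1g (0.28, adjusted p = 0.31) did not. Aif1 was called within animals 23-43 (r = 0.87) and within animals 1-22 (r = 0.82). Behind Aif1, the rest of the 10 genes with the highest t on C1qa were Tbc1d22al, Rgs10, Anxa3, Cd302, Ctss, Cd33, Tmsb4x, Lipa and Cstb. Those with the lowest t were Nup93, Rrp12, Ly6e, Hdlbp, Slc35a4, Atg5, Rab3d, Eif4g1, Ap5z1 and Tm9sf4, with slopes between -0.43 (Rab3d) and -1.18 (Ap5z1).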

How the data were processed

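Anterior pituitary RNA of 43 animals was hybridised to 1 Affymetrix array each. The deposited values are intensities, 1 per probe set for 31099 probe sets, which the authors had scaled linearly so that the trimmed mean of every array was near 500 (500.173 to 500.219; array medians 123.1 to 142). The sources used here do not give the software that summarised the probes. Precision is limited by the number of arrays. Probe set annotation named 1 gene for 20826 probe sets, several for 436 and none for 9780, and 57 were controls.

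Values were used as log2(intensity + 16), without further normalisation. The 15521 probe sets whose mean exceeded the median over the array, controls left out (7.16), entered the fits. A gene was represented by its brightest probe set. Regressions used limma 3.58.1 in R 4.3.3, mixtures mclust 6.1.1, and permutations numpy 2.4.6. The regression and the permutation test were tested on simulated data. The genes named were the members, the fixed lists and the extreme t values on C3 (15 each way) and C1qa (10 each way). Members and lists were chosen with earlier results of these data known. The labels identify separate animals, and the weight classes were not compared. The alternatives were another pseudocount, filter, scaling or covariate, the animal numbers or array quality in the model, and leaving out animals. The fit without animal 43 was chosen after seeing the data.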

Additional observations from a re-analysis of the deposited data

How the results depend on the processing

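Over 14 alternatives, 1711 values of single genes or relations were recomputed. Of these, 1368 were counted as kept, 308 lost the call, 4 gained one and 31 turned direction. Slopes and correlations counted as kept had the same direction and side of the threshold. Mean levels of the members have neither, and counted as kept when they moved by less than 1 SD. In 1 alternative the covariate was the mean of all its probe sets. C3 and C1qa have 1 probe set each, so its 119 values could not change and show no robustness. The causes were not tested, except that within a range of numbers fewer animals enter and that a stricter filter tests fewer genes. No paired analysis was possible because the animals form 1 group. C1qc turned on C3 with a pseudocount of 64 (-0.0000873) and with array medians subtracted (-0.0077).

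Without a filter 639 probe sets were higher and 793 lower with C1qa, and 40 complement genes had a level in place of 21. At the 75th percentile 829 were higher with C3, 9 complement genes had a level and 4 were called in the joint fit, in place of 8. Of those 8, Cfd (mean 8.16), Cfp (7.98), Fcna (8.28) and Cd55 (8.20) did not pass this filter and were not tested. The r of C3 with the posterior lobe and neural score was -0.036. Subtracting array medians gave 709 lower with C1qa, and quantile normalization 382 higher and 443 lower. Without the 2 animals farthest from the median of C1qa (43 and 28) 32 were higher and 20 lower, with array quality in the model 71 and 43, and with the rank of the animal 270 and 327. The slope of Cd55 on C1qa was then -0.25 and -0.14 per log2 unit, and -0.00073 per rank, a unit that cannot be set beside the others.

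Within animals 23-43, 13 probe sets were higher and 3 lower with C3, 593 higher and 876 lower with C1qa, and 2 complement genes were called in the joint fit. Slopes on C3 there were 0.036 for Vcam1, -0.038 for Gh1, -0.050 for Sox2, -0.0023 for Fshb, 0.39 for Cfd, -0.023 for Tek, -0.071 for Nr5a1, -0.21 for 1389470_at, 0.090 for Cd55 and -0.0018 for Serping1. On C1qa the second Cd55 probe set, Cd55 1370406_a_at, had 0.37 and Serping1 -0.071, and in the joint fit Fcna had 0.21 and Cfd 0.38 on C3. Within animals 1-22, 40 were higher and 7 lower with C3, 3 higher and 1 lower with C1qa, and 1 complement gene was called in the joint fit. Cd55 had slopes of 0.0030 on C3, 0.017 on C3 in the joint fit and -0.35 on C1qa, and Serping1 -0.0069 on C3. With the step, 46 were higher and 11 lower with C3, 433 and 700 with C1qa, and 5 complement genes were called in the joint fit, with slopes on C3 of 0.069 for Cfd, 0.030 for Cd55 and -0.0053 for Serping1. With a smooth trend over the numbers the counts were 76 and 20 on C3, 245 and 222 on C1qa and 1 in the joint fit, and slopes were 0.065 for Cfd, -0.012 for 1389470_at and -0.0011 for Serping1 on C3 and -0.12 for Cd55 on C1qa. Of the 57 probe sets called on C3 with the step, 56 were called in the same direction without it.

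Leaving out 1 animal gave 72 (without 43) to 1261 probe sets higher and 39 (without 43) to 1739 lower with C1qa, and 1264 to 1596 higher and 1144 to 1377 lower with C3. Slopes on C3 lay between -0.00078 and 0.032 for 1383392_at, between -0.0061 and 0.0079 for C1qc and between -0.028 and 0.0031 for C1s, and that of Cd55 on C1qa between -0.13 and 0.13.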
